A study of Mus musculus with 8 samples.

Results

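Matrix metalloproteases (MMPs), ADAMTS proteases, the ADAMTS-like proteins and the tissue inhibitors of metalloproteases (TIMPs) were followed in muscle stem cells of old and young mice. The members are the rows of the deposited expression table whose symbols are Mmp, Timp or Adamts with a number, or Adamtsl with a digit. This rule uses names and no measured value, and it found 51 of the 31723 genes in the table: 23 MMPs, 4 TIMPs, 19 ADAMTS and 5 ADAMTS-like genes.

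MMPs and ADAMTS proteases are zinc-dependent enzymes that are made as inactive precursors and cut the proteins and proteoglycans of the extracellular matrix once their propeptide is removed. TIMPs bind the active site of these enzymes and block it, so that matrix turnover depends on the balance of protease and inhibitor. In skeletal muscle the muscle stem cell lies between the fibre and its basement membrane, and these enzymes act on that niche during repair. ADAMTS-like proteins share the ancillary domains of ADAMTS proteases but have no catalytic domain.

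RNA came from freshly isolated muscle stem cells, the Pax7-expressing progenitors of skeletal muscle, which were obtained by FACS from hindlimb muscle. The mice were wild type, of the C57BL/6 strain, and 4 libraries were old (20 months) and 4 young (3 months). The cDNA was amplified before Nextera XT library preparation, and no allele or agent other than age set them apart. The labels do not say whether a library came from 1 animal or a pool, so p-values measure the spread between these samples, which may in part be technical. The single comparison of the design is old against young.

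The deposited values are normalized counts, that is, reads per gene divided by a size factor of the library. Libraries held 19.04 to 26.68 M recovered reads in old and 21.59 to 34.68 M in young. Changes are log2 fold changes (old over young) ± SE from limma on log2(normalized count + 1), a scale that understates the change of low genes, and a call is a Benjamini-Hochberg adjusted p under 0.05 over the 14822 genes whose mean normalized count reached 10. Errors beside levels are SD over the 4 libraries of an age.

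The defining markers of the sorted cells were present in all 8 libraries. Pax7 had 2749 ± 493 normalized counts in old and 2441 ± 419 in young, and Myod1 had 15731 ± 4568 in old and 16087 ± 2593 in young. Of the 8 muscle stem cell markers listed, 2 were called lower and none higher. Itga7 had 6889 ± 139 in old and 11172 ± 1838 in young (-0.68 ± 0.11, adjusted p = 0.00954), and Calcr had 4142 ± 145 in old and 5756 ± 469 in young (-0.47 ± 0.08, adjusted p = 0.0114), each with every old library below every young one. Markers of other cells were present too, and no marker of the 8 other cell types listed was at 0 in every library. The summed count of 12 fibro-adipogenic progenitor markers, of which 3 were called higher and none lower, was 59189 to 154049 in old and 48535 to 85699 in young. The summed count of 8 tenocyte markers, 4 of them called higher, was 44056 to 140251 in old and 29382 to 37532 in young. Most of each young sum was the listed marker Chodl, which was not called. It had 33008 to 37045 in old and 25258 to 31603 in young, so the sum understates the contrast of the other markers in that list. Chodl was far above Pax7 in every library, and which cells its RNA came from was not tested. The tenocyte sums, above all the young ones, are therefore no measure of tenocyte RNA. For 8 endothelial markers, none called, the sum was 16984 to 46610 in old and 14590 to 57296 in young. The libraries numbered 3 were the highest at both ages. In bulk libraries, fewer cells of a type and less RNA per cell cannot be told apart.

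Of the 51 members 39 were tested. In old cells 6 of the 39 were called higher and 1 lower, against 3.34% called higher and 1.88% called lower (5.22% in either direction) among all tested genes. Those higher were the inhibitors Timp1, Timp2 and Timp3, the stromelysins Mmp3 and Mmp11, and the proteoglycanase Adamts5, and the lower one was Adamts15, another proteoglycanase. The 4 old libraries were all above the 4 young ones in 7 members and all below in 2, where 7.99% and 5.46% of all tested genes did so. The median change of the 39 was 0.19, against 0.04 over all tested genes, and 24 changes were above 0 and 15 below, where 56.5% of all tested genes were above 0. An unadjusted p under 0.05 was found in 18 of the 39, against 20.8% of all tested genes.

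**Figure D1:**
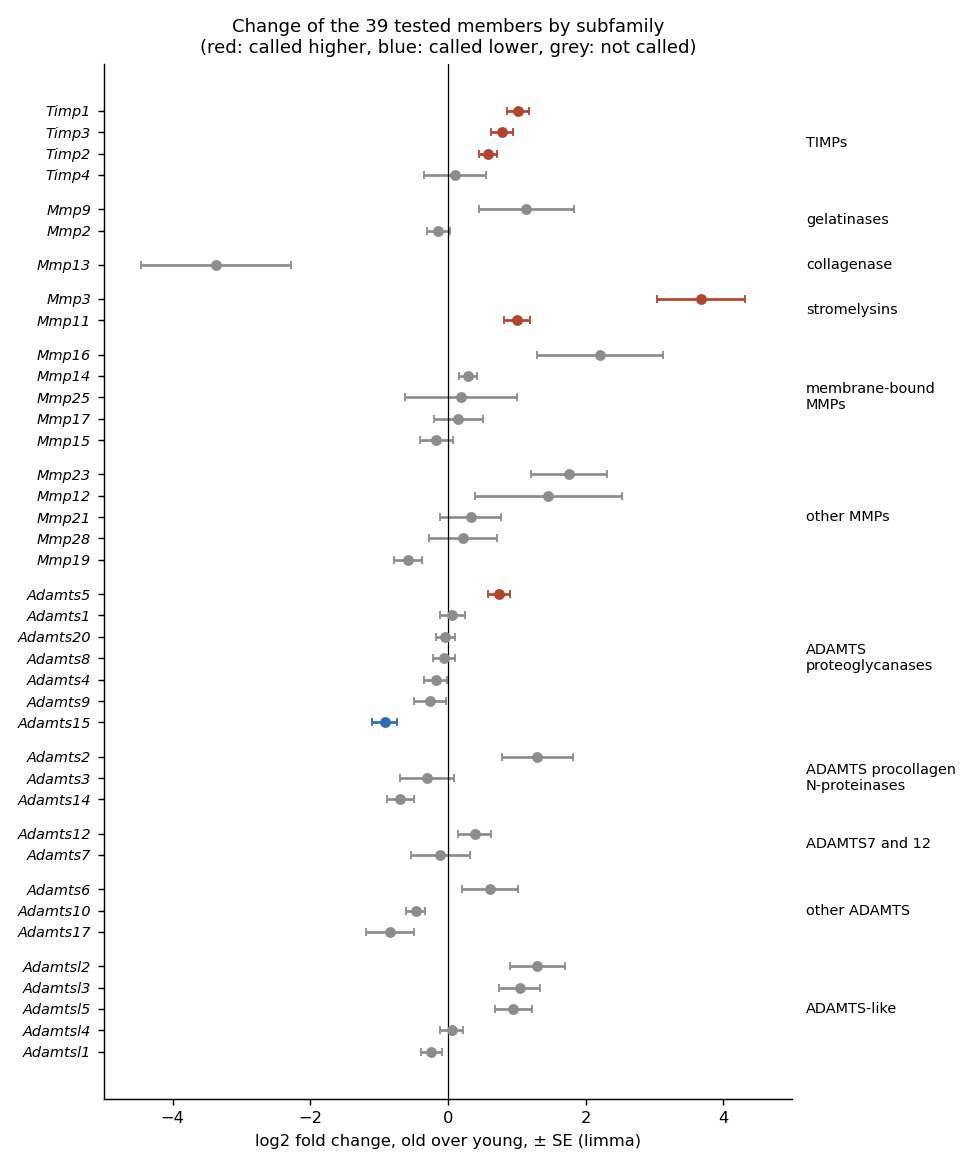
Log2 fold change (old over young, x axis) with its SE for each of the 39 tested members, grouped by subfamily down the page. Red points were called higher (Timp1, Timp2, Timp3, Mmp3, Mmp11, Adamts5), the blue point was called lower (Adamts15) and grey points were not called. Mmp3 at 3.68 and Mmp13 at -3.37 lie farthest from 0.

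Of the 4 TIMPs 3 were called higher, none was lower and 1, Timp4, was not called. Timp1, an inhibitor of most soluble MMPs, had 1161, 1508, 951 and 1385 normalized counts in old libraries 1 to 4, against 653, 542, 548 and 712 in young libraries 1 to 4. Every old library was above every young one, and the means were 1251 ± 247 in old and 614 ± 83.1 in young (log2 fold change 1.01 ± 0.16, adjusted p = 0.00662).

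Timp2 both inhibits MMPs and, with Mmp14, takes part in activating the Mmp2 precursor. It had 22961, 30838, 20202 and 26930.4 normalized counts in the old libraries, against 17514, 18456, 15029.5 and 15954 in the young ones. The ages did not overlap, but the lowest old library, library 3, lay close to the highest young one, library 2 (log2 fold change 0.58 ± 0.13, adjusted p = 0.035). Timp3, which is held in the matrix and also blocks Adamts4 and Adamts5, had 16841, 19312, 20203 and 15678 in old, against 8564, 11954, 13707 and 8349 in young. Here too no young library reached an old one (0.78 ± 0.16, adjusted p = 0.0248). Of the exon bases of Timp3, 21.3% are also exon of Syn3 on the opposite strand in the GENCODE M21 annotation. Syn3 had 20.1 ± 12.4 normalized counts in old and 28.4 ± 21.6 in young, far below Timp3.

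Timp4, the TIMP with the most restricted tissue distribution, varied between libraries rather than between ages. It had 2231, 1584, 4428 and 1767 normalized counts in old and 1233, 2494, 5123 and 1343 in young. Library 3 was the highest at both ages, and the change between ages was 0.097 ± 0.45 (95% interval -0.90 to 1.09, adjusted p = 0.934). The same 2 libraries had the highest endothelial marker sums, 46610 in old library 3 and 57296 in young library 3, against at most 28980 in any other, and the part of those cells in the Timp4 level was not tested.

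**Figure D2:**
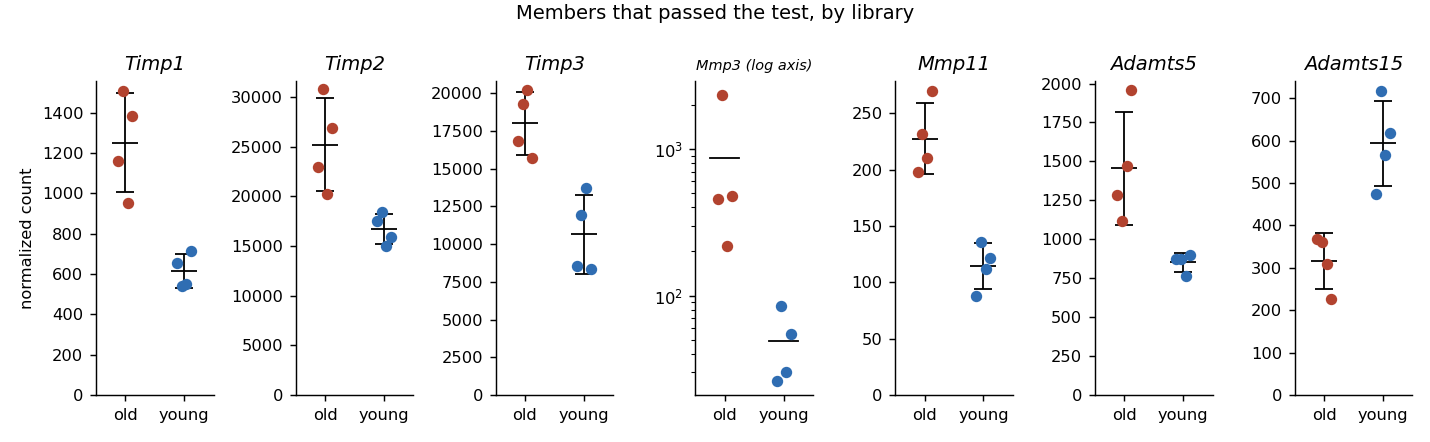
Normalized counts (y axis, linear from 0 except for Mmp3, which has a log axis) of the 7 members that passed the test, old on the left and young on the right of each panel. Points are libraries, horizontal bars are means and whiskers are SD (n = 4), left out for Mmp3. In each panel the old and young libraries do not overlap, with old higher in 6 panels and lower for Adamts15.

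Per kilobase of exon, the TIMPs summed to 9647, 12254, 9488 and 10697 normalized counts in old libraries 1 to 4, against 6492, 7239, 7027 and 6150.1 in young libraries. The same sum over the 23 MMPs was 5248.5, 7700.0, 3814 and 5096 in old and 5758, 5272, 4402 and 5579 in young. The TIMP sums of the ages did not overlap, while the MMP sums did. Most of the MMP sum was Mmp2 (4134 ± 1000.5 per kilobase in old and 4479 ± 619 in young). Most of the TIMP sum was Timp2 and Timp3, so the sums largely restate these genes. Within a library, the log2 ratio of Timp2 to Mmp2, an inhibitor and protease that bind each other, was 0.67 to 1.05 in old and -0.03 to 0.35 in young.

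The 2 gelatinases, which cut denatured collagen and basement membrane collagen, were not called (0 at an unadjusted p under 0.05, and 0 by edgeR or DESeq2). Mmp2 had 14405, 18217, 10096 and 13021 normalized counts in old, against 17185, 14465, 12468 and 16278 in young. The ages overlapped, and the change was -0.14 ± 0.17 (95% interval -0.51 to 0.24, adjusted p = 0.705). Mmp9, abundant in neutrophils and macrophages, was low, with 12.2, 40, 23.6 and 34.4 in old and 3, 34.2, 19.7 and 5.78 in young (1.14 ± 0.69, adjusted p = 0.393).

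Both measurable stromelysins rose. Mmp3, stromelysin 1, cuts proteoglycans, fibronectin and laminin and activates other MMP precursors. It had 453, 2313, 218 and 480.0 normalized counts in old libraries 1 to 4, against 26.4, 85.5, 30.3 and 54.5 in young libraries. The lowest old library was above the highest young one, and old library 2 stood far above the other old libraries. The change was 3.68 ± 0.64 (adjusted p = 0.0109), and without old library 2 it was 3.01 ± 0.44 (adjusted p = 0.0142). Mmp11, stromelysin 3, which is activated inside the cell by furin, had 198, 232, 210 and 270 in old and 87.7, 136, 112 and 122 in young. The ages did not overlap and the old libraries were close to each other (1.00 ± 0.19, adjusted p = 0.0148). Mmp11 shares 5.58% of its exon bases with Chchd10 on the opposite strand, which had 145 ± 25.9 in old and 91.3 ± 20.3 in young and was not called (adjusted p = 0.115).

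Of the membrane-bound MMPs, 5 of 6 were tested and none was called. Only Mmp16, named for that reason, had an unadjusted p under 0.05, and the count tests called 0. Mmp14, the membrane enzyme that activates Mmp2, had 2716, 3789, 2566 and 3396 normalized counts in old, against 2372, 2859, 2486 and 2399 in young (0.29 ± 0.13, adjusted p = 0.244). Mmp15 was lower in level, with 103, 146, 186 and 112 in old and 126, 180, 190 and 119 in young (-0.17 ± 0.24, adjusted p = 0.745). The others, Mmp16, Mmp17 and Mmp25, lay between 0 and 176 normalized counts in any library, and their adjusted p ran from 0.201 to 0.929. Mmp24, the untested one, stayed under the filter with 16 recovered reads over the old libraries and 40 over the young ones.

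In the RefSeq annotation of GRCm38.p6, 10 MMP genes follow one another on chromosome 9 with no other protein-coding gene between them. Their order is Mmp13, Mmp12, Mmp1b, Mmp3, Mmp1a, Mmp10, Mmp8, Mmp27, Mmp20 and Mmp7. Human genes of this run are textbook targets of AP-1, the Fos and Jun transcription factor, through a site close to the start of transcription. RefSeq promoters (250 bases before to 50 after the start) were at hand for 36 of the 51 members. The AP-1 word TGANTCA, where N is any base, was searched in them on both strands. It occurred in 8 of the 10 genes of the run and in 0 of the other 26 members, where 7.81% of all 32851 promoters hold it. This word is looser than the usual AP-1 site, TGAGTCA or TGACTCA. The match in Mmp20, TGAATCA, is neither of these, and all the other matches are. In Mmp12 it was in 1 of the 2 listed promoters, and no match overlapped a TATAAA or GGGCGG word.

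The 8 matches with 10 bases on either side are given 5′ to 3′ on the strand of the gene, in the order of the run and with the match in capitals, because the same word stands in genes whose RNA differed widely here.
Mmp13, chr9:7272469-7272495, plus strand, 35 bases before the start: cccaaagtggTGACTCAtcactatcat
Mmp12, chr9:7347320-7347346, plus strand, 44 bases before the start: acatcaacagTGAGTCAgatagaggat
Mmp1b, chr9:7388103-7388129, minus strand, 93 bases before the start: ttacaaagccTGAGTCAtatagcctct
Mmp3, chr9:7445766-7445792, plus strand, 46 bases before the start: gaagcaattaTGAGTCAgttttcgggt
Mmp1a, chr9:7464058-7464084, plus strand, 73 bases before the start: ttgtcaaccaTGAGTCAcatagcctct
Mmp10, chr9:7502269-7502295, plus strand, 63 bases before the start: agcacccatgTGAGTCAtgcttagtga
Mmp20, chr9:7628126-7628152, plus strand, 95 bases before the start: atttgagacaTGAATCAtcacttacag
Mmp7, chr9:7692017-7692043, plus strand, 63 bases before the start: agtgtgcaaaTGAGTCAcctatttcca

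The whole promoters of Mmp3 and Mmp13 are shown because these were the 2 genes of the run with the most reads and their values differed between ages in opposite directions (GRCm38.p6, plus strand, AP-1 word in capitals).
Mmp3, chr9:7445572-7445871: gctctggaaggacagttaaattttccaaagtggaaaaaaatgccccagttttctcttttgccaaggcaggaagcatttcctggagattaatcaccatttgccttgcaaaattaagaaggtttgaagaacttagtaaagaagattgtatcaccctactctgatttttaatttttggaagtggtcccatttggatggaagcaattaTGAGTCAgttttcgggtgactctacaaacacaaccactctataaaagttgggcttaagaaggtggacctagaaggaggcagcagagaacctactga
Mmp13, chr9:7272264-7272563: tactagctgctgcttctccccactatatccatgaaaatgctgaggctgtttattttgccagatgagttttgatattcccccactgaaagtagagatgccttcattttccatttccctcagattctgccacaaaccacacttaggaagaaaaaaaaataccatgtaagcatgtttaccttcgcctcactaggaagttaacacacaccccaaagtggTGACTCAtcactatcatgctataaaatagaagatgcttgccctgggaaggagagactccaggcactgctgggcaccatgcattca
A match is a description of these letters and does not show that a factor bound there.

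Within this run only Mmp3 passed the test in limma. Mmp13, collagenase 3, had 7.51, 100.5, 1.07 and 4.69 normalized counts in old, against 41.4, 435, 72.7 and 85.1 in young. Library 2 was the highest at both ages and made the ages overlap. The change was -3.37 ± 1.09 (adjusted p = 0.108), and without old library 2 it was -4.49 ± 0.80 (adjusted p = 0.0254, where the alternatives ran from 0.0103 to 0.274). The log2 ratio of Mmp3 to Mmp13 within a library, taken on normalized counts + 1, was 4.51 to 6.72 in old and -2.33 to -0.63 in young. The value of 6.72 is from old library 3, where Mmp13 was at 1 read, so it depends on the added 1.

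Mmp12, the macrophage elastase, was at 4.09 to 10.3 normalized counts in 3 old libraries and at 100.8 in old library 4, against 0 to 17.4 in young (1.46 ± 1.07, adjusted p = 0.49). Old library 4 also had the highest sum of 8 macrophage markers, 4831, against 1332 to 2620 in the other old libraries and 953 to 2400.1 in young, and their part in the Mmp12 level was not tested. Mmp8, the neutrophil collagenase, and Mmp27 stayed under the filter with 8 and 22 recovered reads over the old libraries and 49 and 19 over the young ones. The reads of Mmp8 in young cells were in libraries 2 and 3, which also had the highest sums of 8 neutrophil markers, 1465.5 and 1559.5, against at most 963 in any other library, and their part was not tested. Mmp1a, Mmp1b, Mmp10, Mmp20 and Mmp7 were at 0 in all 8 libraries. A count of 0 allows up to 3 reads in a library, that is 0.158 reads per M in the shallowest, and such limits cover counting error only.

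**Figure D3:**
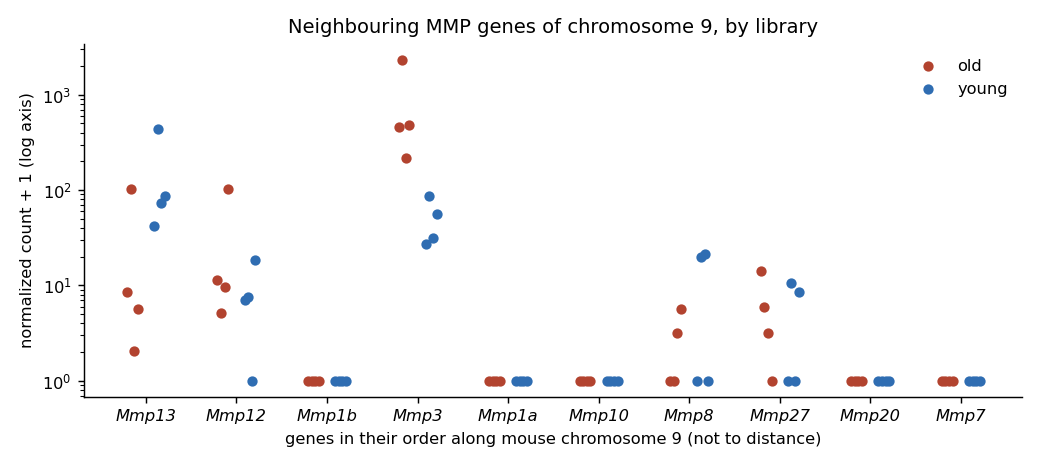
Normalized count + 1 (log y axis) of the 10 MMP genes that follow one another on chromosome 9, in their order along the chromosome and not to distance, with 4 old libraries on the left and 4 young on the right for each gene. Mmp3 is higher in all old libraries, Mmp13 is lower in 3 of them, and Mmp1b, Mmp1a, Mmp10, Mmp20 and Mmp7 are at 0.

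Outside this run, the remaining MMPs were not called in limma, though DESeq2 called Mmp23 higher and Mmp19 lower. Mmp23, a short MMP anchored to the membrane until it is cut, had 67.6 to 290.0 normalized counts in old and 16.2 to 73.1 in young (1.76 ± 0.55, adjusted p = 0.099). Mmp19 had 249 to 314 in old and 298 to 579 in young (-0.58 ± 0.20, adjusted p = 0.133), and 28.3% of its exon bases are shared with genes on the opposite strand. Of these genes, Tmem198b had 189 ± 69 in old and 159 ± 45.9 in young and was not called (adjusted p = 0.694). The means of Mmp19 were 284 ± 31.7 and 434.5 ± 124, and the part of Tmem198b in them was not tested. Mmp21 and Mmp28 were at 10.6 to 58 in old and 11.6 to 91 in young, with adjusted p of 0.732 and 0.853.

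The ADAMTS proteoglycanases, which cut aggrecan and versican, split in direction. Of the 7, all tested, 1 was called higher, 1 lower and 5 were not called. Adamts5 had 1287, 1116, 1468 and 1957 normalized counts in old, against 871, 872, 765 and 899.9 in young. The young libraries were close to each other and below every old one (0.74 ± 0.16, adjusted p = 0.0252). Adamts15, which with Adamts5 processes versican during mouse myoblast fusion, had 369, 361, 309 and 226 in old, against 474, 716, 567 and 617 in young. It was lower in every old library than in any young one (-0.92 ± 0.18, adjusted p = 0.0211).

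Each of these genes has a proteoglycanase as its next protein-coding neighbour in RefSeq. Adamts1, next to Adamts5 on chromosome 16, had 23193, 32742, 24635 and 18964 normalized counts in old, against 19678, 25468, 29035 and 20475 in young (0.063 ± 0.18, 95% interval -0.33 to 0.45, adjusted p = 0.888). Adamts8, next to Adamts15 on chromosome 9, had 1023 to 1401 in old and 908 to 1522 in young (-0.061 ± 0.16, 95% interval -0.42 to 0.30, adjusted p = 0.883). In both neighbours the ages overlapped. The log2 ratio of Adamts5 to Adamts1 within a library was -4.87 to -3.28 in old and -5.24 to -4.50 in young, and that of Adamts15 to Adamts8 was -2.63 to -1.49 in old and -1.68 to -0.68 in young, so that both ratios overlapped between ages.

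Adamts4, an aggrecanase, had 23673, 36596, 22560.3 and 23613 normalized counts in old, against 32350.4, 34938, 26817 and 24904 in young. Old library 2 stood above the other old ones and the ages overlapped (-0.18 ± 0.17, 95% interval -0.55 to 0.20, adjusted p = 0.602). Adamts9 had 1152, 1120.3, 1780 and 818 in old, against 1047, 1629.8, 1758 and 1286 in young (-0.26 ± 0.23, adjusted p = 0.575). Adamts20 had 405 to 599 in old and 427 to 500.3 in young (-0.037 ± 0.14, adjusted p = 0.922).

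None of the other 8 tested ADAMTS genes was called by limma (4 had an unadjusted p under 0.05; edgeR called 0, and DESeq2 called Adamts10 and Adamts14 lower). Among the procollagen N-proteinases, which trim the amino end of fibrillar procollagens, Adamts14 had 106 to 135 normalized counts in old and 164 to 268 in young, with no overlap between the ages (-0.69 ± 0.19, adjusted p = 0.0659). Adamts2 had 239 to 876 in old and 96.6 to 506 in young (1.30 ± 0.51, adjusted p = 0.182), and Adamts3 had 25.3 to 53.1 in old and 24.7 to 67.8 in young (adjusted p = 0.727). Adamts10, a fibrillin-binding member, had 2852, 3005, 2974 and 3763 in old, against 5566, 4278, 3490.0 and 4256 in young. Old library 4 alone lay above a young library, library 3 (-0.47 ± 0.14, adjusted p = 0.0878).

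The change was 0.39 ± 0.24 for Adamts12 and -0.11 ± 0.43 for Adamts7, which both cut cartilage oligomeric matrix protein, 0.61 ± 0.40 for Adamts6 and -0.84 ± 0.35 for Adamts17, with adjusted p from 0.203 to 0.924. Adamts13, the protease of von Willebrand factor, and Adamts16, Adamts18 and Adamts19 stayed under the filter with 2 to 38 recovered reads over the old libraries and 4 to 29 over the young ones.

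The 5 ADAMTS-like genes were all tested and none was called in limma. In 3 the unadjusted p was under 0.05, edgeR called 0 and DESeq2 called 2 higher. Adamtsl3 had 185 to 375 normalized counts in old and 81.8 to 173 in young, with no overlap (1.04 ± 0.30, adjusted p = 0.0791). Adamtsl5 had 184 to 421 in old and 128 to 227 in young (0.95 ± 0.27, adjusted p = 0.0748), and these were the 2 that DESeq2 called. Adamtsl2, which binds fibrillin microfibrils, had 92.9 to 159 in old and 24 to 99.7 in young (1.30 ± 0.40, adjusted p = 0.09). Adamtsl1 and Adamtsl4 were more abundant, at 818 to 2057 in old and 808 to 2630.2 in young, and changed by -0.24 ± 0.15 and 0.051 ± 0.16 (adjusted p = 0.40 and 0.904).

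Levels between genes were compared per kilobase of exon, as the mean over all 8 libraries. The 8 highest members were Adamts4 (5859), Timp2 (5386), Adamts1 (4578), Mmp2 (4306), Timp3 (1759), Timp1 (1050.3), Mmp14 (474) and Adamts10 (457). In old libraries alone Timp2 averaged 6477 ± 1193, Adamts4 5532 ± 1388, Adamts1 4693 ± 1087 and Mmp2 4134 ± 1000.5 per kilobase. In young libraries the same 4 averaged 4296 ± 394, 6186 ± 973, 4463 ± 830 and 4479 ± 619. In old libraries each of these differed from the next in order by less than the larger SD of the pair. In young libraries that was so of Mmp2, Adamts1 and Timp2, while Adamts4 lay above them by more than its SD. The next member, Timp3, was at 2211 ± 259 in old and 1307 ± 322 in young. Lower in the order the means ranked differently by age. After Mmp14 (523 ± 96.6), the old means of Mmp3 (481 ± 540) and Timp4 (425 ± 223) were above that of Adamts10 (382 ± 50.3). In young libraries the mean of Adamts10 (533 ± 104) was above those of Timp4 (432 ± 307) and Mmp14 (424 ± 37.8), with Mmp3 at 27.3 ± 15.1. The old order of means did not hold library by library. Per kilobase, Mmp3 was above Adamts10 only in the old library where Mmp3 had 2313 normalized counts. It was below Adamts10 in the others, where Mmp3 had 218 to 480.0. At both ages, which of Timp4 and Adamts10 was higher varied between libraries.

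**Figure D4:**
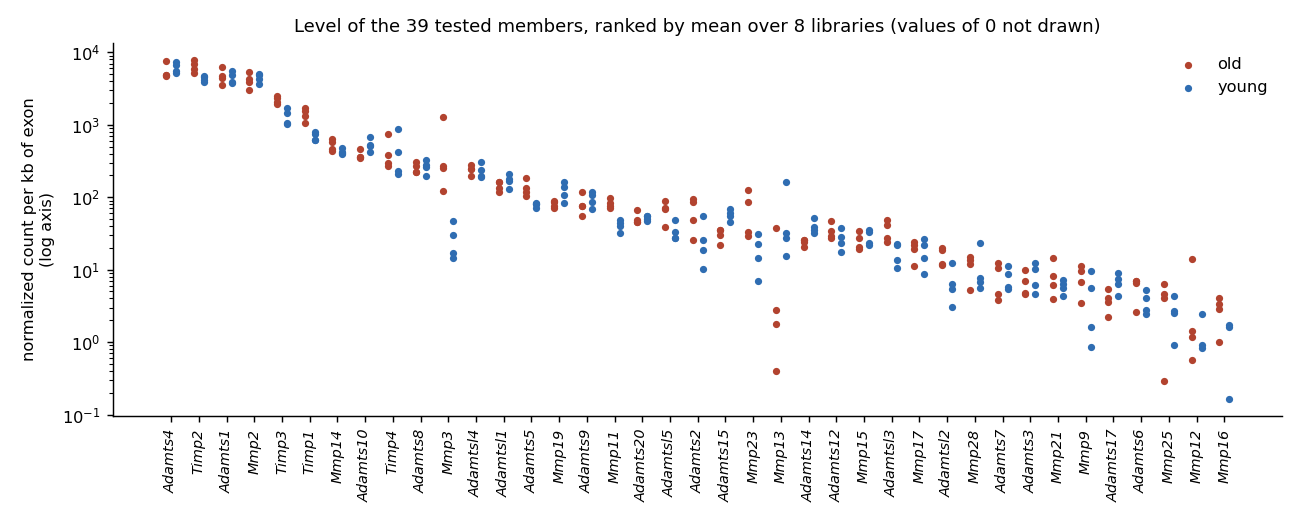
Normalized count per kilobase of exon (log y axis) of the 39 tested members in each library, ordered from left to right by the mean over all 8 libraries, with old on the left and young on the right for each gene. Values of 0 are not drawn. Adamts4, Timp2, Adamts1 and Mmp2 lie together at the top, and Mmp16, with a mean of 1.85, is the lowest.

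Some called members followed markers of other cells in the order of the old libraries, and others did not. The fibro-adipogenic marker sum was 91912, 154049, 59189 and 132233 in old libraries 1 to 4, against 64335, 85699, 52490 and 48535 in young libraries 1 to 4. The tenocyte marker sum, most of which was Chodl in the young libraries, was 70990.5, 140251, 44056 and 76769 in old. It was 35224, 33324, 29382 and 37532 in young, so that every old library was above every young one. The order of the old libraries by either sum was also their order by Mmp3, Timp1 and Timp2. It was not their order by Timp3, Mmp11, Adamts5 or Adamts15. Among the young libraries, neither sum gave the order by Mmp3, Timp1 or Timp2. Old library 3 had a fibro-adipogenic sum below that of young libraries 1 and 2 and a tenocyte sum above all young ones. Much of the fibro-adipogenic sum in young libraries 1 and 2 was Col3a1 (35268 and 36758, against 15516 in old library 3). Old library 3 held more Mmp3, Timp1, Timp2, Timp3, Mmp11 and Adamts5 and less Adamts15 than any young library. That was true of every old library, because the ages of these members did not overlap, so it tells nothing about either sum. The part of tenocyte markers in these differences was not tested.

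With the mean log2 level of the 12 fibro-adipogenic markers as a covariate, 26 genes of the whole table were higher and 12 lower. Without it 495 were higher and 278 lower. None of the 7 members kept its call. The covariate itself differed with age, as 9 of its 12 markers changed above 0 and 3 were called higher. The SE of each member rose with it, for Timp1 from 0.16 to 0.23. Age and marker level therefore cannot be told apart in this fit, and the lost calls do not separate them. Their changes were then 2.38 ± 0.78 for Mmp3, 0.85 ± 0.23 for Timp1, 0.82 ± 0.25 for Timp3, 0.78 ± 0.27 for Mmp11, 0.65 ± 0.24 for Adamts5, 0.25 ± 0.14 for Timp2 and -0.92 ± 0.28 for Adamts15. The adjusted p ran from 0.233 (Timp1) to 0.594 (Timp2). The change of Timp2 was less than that without the covariate by more than 1.5 times, as was that of Mmp3, and the others moved less.

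**Figure D5:**
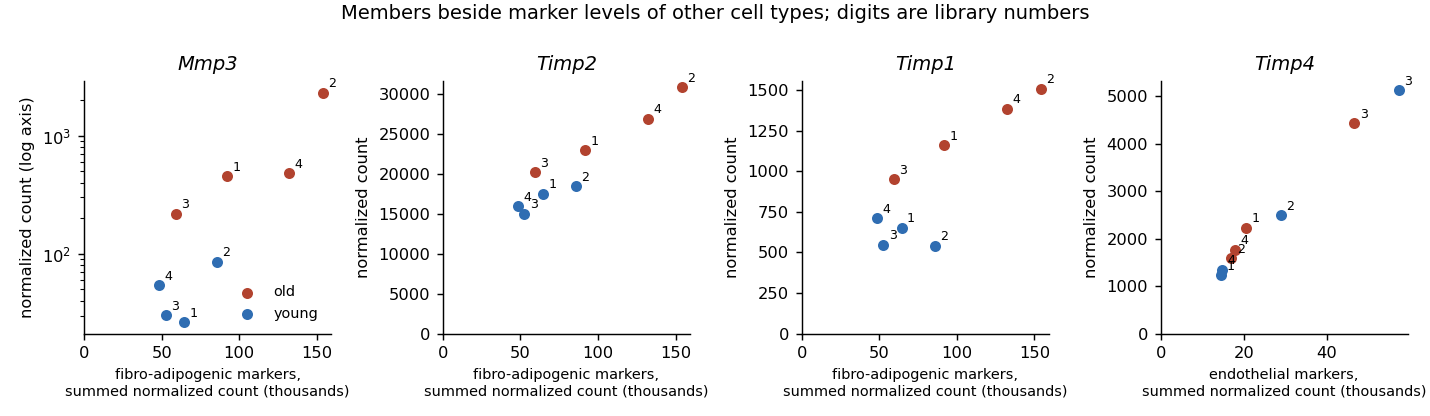
Normalized counts (y axis, log for Mmp3 and linear from 0 for the others) of 4 members in the 8 libraries against the summed normalized count of fibro-adipogenic or, for Timp4, endothelial markers (x axis, in units of 1000). Points are libraries and the digit is the library number. Mmp3 and Timp1 are higher in every old library than in any young one, the fibro-adipogenic sums of the ages overlap (tenocyte sums, not drawn, do not), and Timp4 is highest in old and young library 3, where endothelial markers are highest.

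Leaving out 1 library at a time left the direction of all 7 called members as it was. Mmp3 (3.01 to 4.14) and Timp1 (0.92 to 1.14) kept their call in each of the 8 fits. Mmp11 (0.87 to 1.08) lost it without old library 4 (adjusted p = 0.0501), and Adamts15 (-1.02 to -0.76) without young library 4 (adjusted p = 0.0618). Adamts5 (0.59 to 0.86) lost it without young library 1 or 4, Timp3 (0.68 to 0.92) without old library 1, 2 or 3 or young library 1 or 4, and Timp2 (0.48 to 0.68) without old library 1, 2 or 4 or young library 1, 3 or 4. Adamts5 also lost its call without both libraries numbered 3 (adjusted p = 0.068), and Timp2 with no filter on low genes (adjusted p = 0.0527). Members called higher numbered 3 without young library 1 and 3 without young library 4. Members called lower numbered 0 without young library 4, 2 without old library 2 and 4 without young library 3.

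Genes around these families were read from lists chosen with results of these data known, so the counts in these lists are no test of them. Among all tested genes 3.34% were called higher and 1.88% lower. Of 10 tested genes in the list of inhibitors outside the TIMPs, 5, Pcolce among them, were called higher and none lower. Their median change was 0.82, against 0.04 over all tested genes. Reck, a membrane-anchored MMP inhibitor, had 614, 830.2, 492 and 822 normalized counts in old, against 424, 408, 362 and 296 in young (0.87 ± 0.19, adjusted p = 0.0282). Reck rose with no overlap between the ages.

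Also called higher were the testicans Spock1 (4.39 ± 0.48) and Spock3 (1.21 ± 0.19), proteoglycans of the matrix, and Pcolce (1.34 ± 0.32), with adjusted p of 0.00161, 0.00729 and 0.0424. Pcolce is not an inhibitor: it enhances the procollagen C-proteinase Bmp1. Pcolce lost its call in 9 of 19 alternatives, and Reck in 6.

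Bmp1 itself fell. It had 4053, 3478, 3423 and 4356 normalized counts in old, against 7106, 7467, 5478 and 7096 in young (-0.82 ± 0.12, adjusted p = 0.00562), and kept its call in all 19 alternatives. With it, 12 astacin and other matrix proteases were tested, of which 2 were called higher, Fap (1.08 ± 0.23) and the neprilysin gene Mme (2.51 ± 0.54). Of 10 ADAM proteases 2 were called higher, Adam33 (2.37 ± 0.58) and Adam22 (0.80 ± 0.18), the second a receptor without protease activity. They lost their call in 10 and 8 of the 19 alternatives.

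None of 15 tested activators and partners was called by limma (4 had an unadjusted p under 0.05; edgeR called 0, and DESeq2 called 1 higher and 1 lower). Among them were the urokinase gene Plau at 0.72 ± 0.22 (adjusted p = 0.0946) and the proprotein convertase Furin at -0.40 ± 0.12 (adjusted p = 0.09), both named after their values were seen. Of 20 matrix substrates 3 were called higher, the small proteoglycans Dcn (2.32 ± 0.39) and Bgn (1.03 ± 0.18) and the cartilage matrix protein Comp (2.56 ± 0.57). Called lower were the basement membrane collagen Col4a1 (-0.65 ± 0.14) and the collagen-binding Sparc (-0.73 ± 0.14). Of the 19 alternatives, Col4a1 lost its call in 8, Comp in 7, Mme in 5, Fap in 4, Sparc in 3, and Dcn and Bgn in 1 each. Dcn is also in the fibro-adipogenic marker list.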

How the data were processed

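RNA-seq libraries of sorted muscle stem cells, 4 old and 4 young, were grouped by the titles in the labels. Per the submitters' processing notes, the authors trimmed with Trim Galore 0.4.2, and STAR, featureCounts from Subread 1.5.1 and DESeq2 are also named; GRCm39 and mm10 are named without a role, and strandedness is not given in the sources used here. The deposited signal is a count divided by a size factor per library. Dividing each column by its smallest value returned numbers within 0.01 of a whole read in 99.974% or more of the values above 0, and a count test on those reads called 707 genes with edgeR 4.0.16 and 1369 with DESeq2 1.42.0. Libraries held 19.04 to 34.68 M such reads.

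Ages were compared in R 4.3.3 by limma 3.58.1, using its intensity trend, on log2(normalized count + 1), age as the only term, two-sided, over the 14822 genes with a mean of at least 10. It was tested on simulated data. Members and lists were chosen with earlier results of these data known. Values in every library are given for called members, the TIMPs, 10 fixed proteases and the 8 highest members per kilobase, and Mmp13 and some of the neighbouring genes were added after their values were seen. Exon lengths came from GENCODE M21, and promoters and gene order from RefSeq GRCm38.p6, matched by symbol. In the list of inhibitors outside the TIMPs, 1 gene is counted but its values are not reported here. No coordinates come from the deposited file, which gives symbols only. Alternatives were pseudocounts of 0.5 and 8, no filter, a minimum mean of 50, quantile normalization, equal totals, edgeR, DESeq2, the replicate number as a block, the marker covariate, and leaving out libraries.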

Additional observations from a re-analysis of the deposited data

Results flagged for a closer look

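In 9 of the 78 groups of 4 libraries examined (39 tested members at 2 ages), 1 library stood far from the other 3. Chance would flag about 1 in 20 such groups if values were normally distributed. The rule was applied to normalized counts and not to their logs, so that rate need not hold here. All flags but that of Adamts6 were of a high value. In old library 2, Mmp3 was at 2313 normalized counts against 218 to 480.0 in the other old libraries, Adamts4 at 36596 against 22560.3 to 23673, and Mmp13 at 100.5 against 1.07 to 7.51. In old library 4, Mmp12 was at 100.8 against 4.09 to 10.3, Adamts10 at 3763 against 2852 to 3005, and Adamts20 at 599 against 405 to 430. Adamts6 was low in old library 1, at 20.6 against 50.4 to 53.9. Among young libraries, Mmp13 was at 435 in library 2 against 41.4 to 85.1, and Mmp28 at 91 in library 3 against 21.5 to 29.4.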

How the results depend on the processing

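Each of the 39 tested members was refitted under up to 19 alternatives, and 24 kept their direction in all of those run, among them the 7 called ones. Members higher and lower numbered 10 and 2 with the replicate block (559 and 252 over all genes) and 0 and 0 with the marker covariate (26 and 12), and members lower numbered 2 under quantile normalization and 4 with DESeq2 (768 higher and 601 lower over all genes). Leaving out 1 library gave 3 to 8 members higher, 0 to 4 lower, 213 to 523 genes higher and 117 to 316 lower. Without both libraries numbered 3, 533 genes were higher. Same-numbered libraries did not deviate together in every pair (correlations -0.0416 to 0.304, 2 of 4 pairs over 0.1, and 5 of 8 libraries closest to their own number), so the numbers were not taken to pair them.

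Direction changed only for members that were not called. With the marker covariate it changed for Adamts12 (-0.17), Adamts2 (-0.22), Adamts7 (0.39), Adamts9 (0.10), Adamtsl4 (-0.23), Mmp14 (-0.022), Mmp17 (-0.45) and Mmp21 (-0.072); under quantile normalization for Mmp17 (-0.074) and Mmp25 (-0.18); with edgeR for Timp4 (-0.045); with DESeq2 for Timp4 (-0.05) and Adamtsl4 (-0.0052); and without both libraries numbered 3 for Adamtsl4 (-0.049). Leaving out 1 library, the change ran from -0.078 to 0.18 for Adamts1, -0.17 to 0.02 for Adamts20, -0.38 to 0.18 for Adamts7, -0.20 to 0.047 for Adamts8, -0.033 to 0.19 for Adamtsl4, -0.15 to 0.38 for Mmp17, -0.28 to 0.0072 for Mmp2, -0.21 to 1.04 for Mmp25, -0.0085 to 0.67 for Mmp28 and -0.22 to 0.52 for Timp4. The cause was not tested. Quantile normalization moved the median of all tested genes to -0.031, against 0.045. Among the 10 tested members with a mean under 50 normalized counts the SE reached 1.07, and for Mmp13, above that mean, it was 1.09.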
